A study of Mus musculus with 6 samples.

Results

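The day 7 library of fractured mouse tibia held 2093 ribosomal-rich barcodes among 3448. These barcodes had 200 or more genes and drew 5% or more of their UMIs (unique molecular identifiers, 1 per captured transcript) from the Rps and Rpl genes of the cytosolic ribosome. They were chosen by that share, and they were set beside the 1352 barcodes of the same library under 1.5%, while 3 barcodes lay between the limits. The whole series held 13551 barcodes in 6 libraries. Most of the listed neural progenitor, neuron and choroid plexus genes and the 3 embryonic globin genes were higher in the ribosomal-rich barcodes than in the others.

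The series followed the periosteum, the tissue sheath of bone, in C57BL6 mice of 12 weeks, males and females together. No transgene distinguished the groups. The mice with fractures received anesthesia and analgesia around surgery, which the paper does not describe for the uninjured mice. The uninjured tibia gave 2 libraries from 4 mice, and injured periosteum with hematoma or callus gave 2 libraries at day 3, 1 at day 5 and 1 at day 7 after an open, non-stabilized tibial fracture, from 4 to 9 mice. Each library is a pool of mice whose nuclei were released by douncing and sorted on a DNA dye, so its barcodes cannot be tied to single animals. Day 7 has 1 library, and therefore no difference below was tested. Both barcode groups come from that library, and intervals are 95% exact Poisson or binomial intervals that cover counting error only.

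In the embryo, Sox2-positive progenitors line the neural tube and give rise to neurons, which switch on Tubb3, a neuronal tubulin, and the RNA-binding proteins Elavl3 and Elavl4. At the dorsal midline of the brain the same epithelium forms the choroid plexus, which secretes cerebrospinal fluid and the thyroid hormone carrier transthyretin, encoded by Ttr. Embryonic globins such as Hba-x, Hbb-bh1 and Hbb-y are made by primitive red cells, which circulate through the embryo and are replaced by cells with adult globins.

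The 2 barcode groups of day 7 were separated by a wide gap in the measure that chose them. The Rps/Rpl share of the ribosomal-rich barcodes ran from 6.23% to 30.8% with a median of 16.4%, and that of the others from 0% to 1.29% with a median of 0.0992%. The 4 lowest ribosomal-rich barcodes had 6.23%, 7.16%, 7.40% and 7.82%. The 3 barcodes between the limits had 2.14%, 3.02% and 4.91%, and the one at 4.91% is taken up again with the globins. Limits of 3% or 10% would have chosen 2095 or 2030 barcodes.

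**Figure D1:**
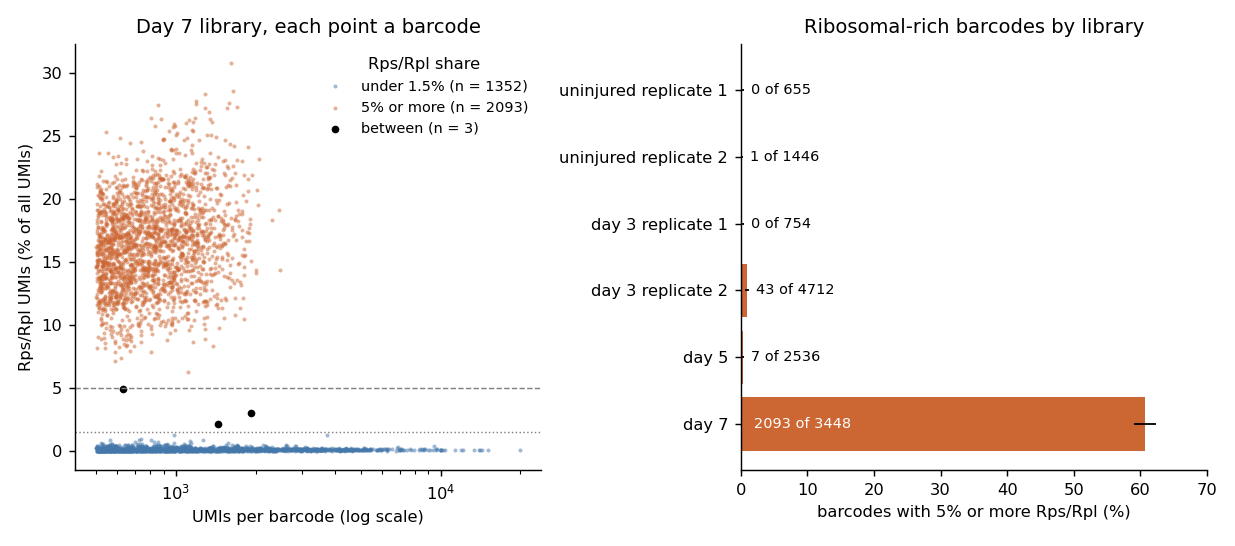
Left, Rps/Rpl UMIs as a percentage of all UMIs (vertical) against UMIs per barcode (horizontal, log scale) for each barcode of the day 7 library, with dashed and dotted lines at 5% and 1.5%; right, the share of barcodes at 5% or more in each library, with 95% exact binomial intervals. The 2093 ribosomal-rich barcodes form 1 cloud between 6.23% and 30.8%, and no other library holds more than 43 such barcodes.

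The same limit chose few barcodes elsewhere, and these held few or no UMIs of the marker genes. Ribosomal-rich barcodes were 60.7% of the day 7 library (59.1 to 62.3%). They numbered 0 of 655 and 1 of 1446 in the uninjured libraries, 0 of 754 and 43 of 4712 at day 3, and 7 of 2536 at day 5. Those 51 barcodes held no UMI of Sox2, Rmst, Ttr, Hba-x or Hbb-bh1. The 43 at day 3 had 3 UMIs of Tubb3, Elavl3 and Elavl4 and 2 of Dcc, and the 7 at day 5 had 1 and 0. In all 10103 barcodes of the 5 other libraries, with 50793154 UMIs, there were 8 UMIs of Sox2, 3 of Ttr and 0 of Hba-x, Hbb-bh1 or Hbb-y. The other markers were present at low levels, with 385 UMIs of Dcc, 271 of Tubb3, Elavl3 and Elavl4 and 177 of Rmst. Of the day 7 cell barcode sequences, 5 were found in another library, 3 of them ribosomal-rich.

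The ribosomal-rich barcodes were shallow and their RNA was rich in cytoplasmic transcripts. They held 500 to 2467 UMIs with a median of 784, against 500 to 20012 with a median of 1326 in the others, and they supplied 40.4% of the UMIs of the library. Mitochondrial UMIs were 2.06% of their total against 0.00657% in the others. All 14 genes of a list of abundant cytoplasmic transcripts were 2-fold or more higher in the ribosomal-rich barcodes, led by Eef1a1, a translation elongation factor, at 4078 CPM (UMIs of the gene scaled to a group total of 1000000) against 45.2. All 6 noncoding transcripts of the nuclear list were 2-fold or more lower, among them Malat1 at 6068 against 66753 CPM and Gm42418, which overlaps ribosomal RNA, at 1793 against 75046 CPM. The limits in the study's methods, under 1.5% ribosomal and under 2% mitochondrial UMIs with 200 to 5000 genes, left 1351 of the 3448 barcodes. The ribosomal limit leaves out every ribosomal-rich barcode by definition, and 1009 of the 2093 were within the mitochondrial limit.

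Across all genes the barcode groups differed widely, so a 2-fold difference by itself was common. After genes with under 50 UMIs and the Rps/Rpl genes were left out and 10 CPM was added to both levels, 9776 genes remained. Of these, 28.2% were 2-fold or more higher in the ribosomal-rich barcodes and 27.4% were 2-fold or more lower. The median log2 ratio was -0.09. It was 0.14 when CPM was computed without Rps/Rpl and mitochondrial UMIs, which changed the split to 3151 higher and 2277 lower from 2755 and 2680. The ratios below are read against that background.

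The 15 largest ratios were those of mt-Atp6, Ttr, mt-Co3, mt-Cytb, Gapdh, mt-Co2, Dcc, Fau, H2afz, Tpt1, mt-Nd1, Stmn1, Tubb5, Rmst and mt-Co1, in falling order from a log2 ratio of 8.17 to 6.68. Ttr stood at 3393 CPM (3308 to 3478) against 1.87 (0.606 to 4.36). Dcc, the netrin receptor of growing axons, stood at 2780 CPM (2703 to 2857) against 10.1 (6.65 to 14.7). Rmst, a noncoding RNA that binds Sox2 protein in neural progenitors, stood at 1611 CPM (1554 to 1671) against 3.36 (1.54 to 6.38). Stmn1, a tubulin-binding protein of growing neurons and dividing cells, stood at 1774 against 4.48 CPM.

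The 10 smallest ratios were those of Ttn, Itgbl1, Taco1, Neat1, Neb, Kcnma1, Trdn, Runx1, Col12a1 and Tbx15, from a log2 ratio of -7.40 to -5.73. Ttn, the giant spring protein of muscle, was 240-fold lower at 23.6 against 5670 CPM. Col12a1, a fibril-associated collagen, was 137-fold lower at 6.60 against 904 CPM. Tbx15, a transcription factor of limb mesenchyme, was 171-fold lower at 4.40 against 752 CPM.

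**Figure D2:**
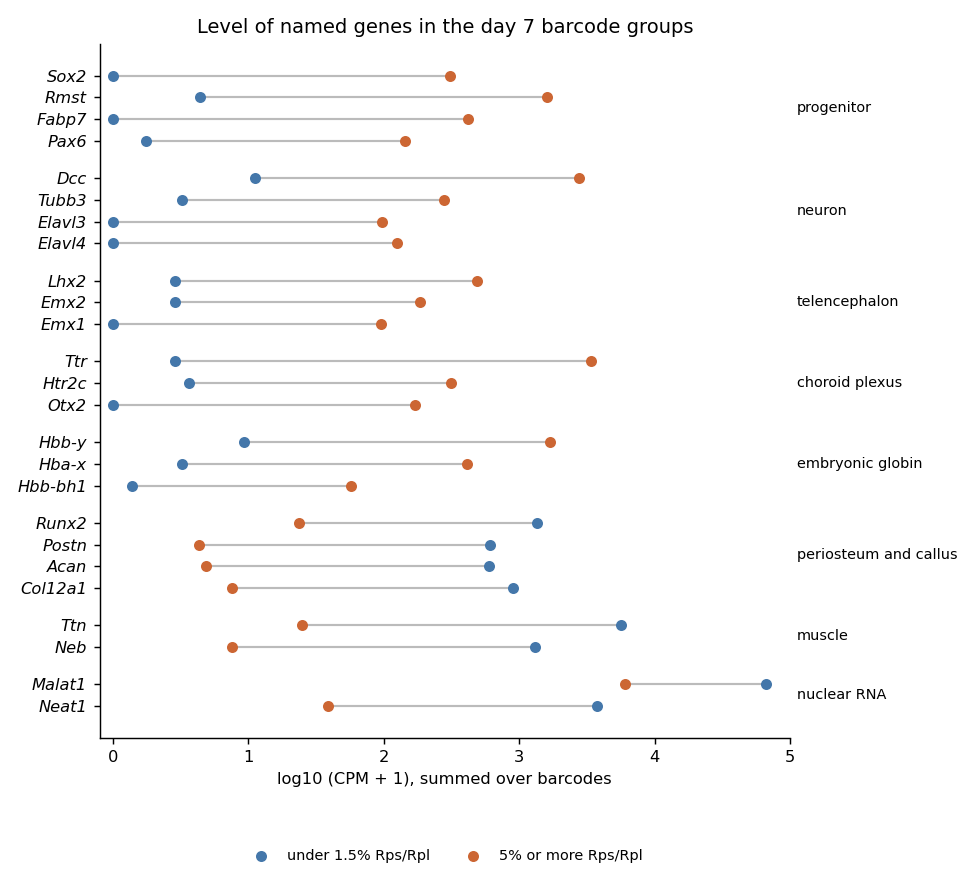
Level of named genes as log10 of CPM plus 1 (horizontal), summed over the 2093 ribosomal-rich barcodes (orange) and the 1352 barcodes under 1.5% Rps/Rpl (blue) of the day 7 library. Progenitor, neuron, telencephalon, choroid plexus and globin genes lie to the right in orange, such as Ttr at 3393 against 1.87 CPM, and callus, muscle and nuclear genes lie to the right in blue.

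Neural progenitor genes were found in most ribosomal-rich barcodes. After 500 UMIs had been drawn from every barcode, 80.2% had a UMI of the 12 listed genes, against 1.775% of the others. Rmst supplied 2931 of the 6475 UMIs of the list. Of the 12 genes of the progenitor list, 11 were 2-fold or more higher, none was lower and 1 (Sox1, 40 UMIs against 0) did not reach the minimum count. The median log2 ratio over all 12 was 3.68, beside 0 over all genes with no minimum. Sox2, a transcription factor that keeps neural progenitors undifferentiated, had 554 UMIs in 462 barcodes, or 305 CPM (279.7 to 331), and 0 UMIs in the other barcodes, and was thus at least 272-fold higher with 3 counts over the group taken as the floor. Fabp7, a fatty acid binding protein of radial glia, had 759 UMIs against 0 and was at least 372-fold higher. Rmst was the highest of the list at 1611 CPM, and Rfx4 (276 CPM) and Zic1 (274 CPM) followed Sox2 in level. Sox2 lies at chr3:34650405-34652461 (GRCm38, plus strand), inside the longer noncoding gene Sox2ot on the same strand, which had 1789 UMIs against 33, so reads where they overlap cannot be assigned with certainty.

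The neuron list summed to 4179 CPM, most of it Dcc, beside 3560 CPM for the progenitor list and 408 CPM for the neurogenic list. Of 18 neuron genes, 13 were 2-fold or more higher, none was lower and 4 did not reach the minimum, with a median log2 ratio of 2.35 over all 18. The remaining one, Mapt, a microtubule protein of axons, had 24 UMIs against 53. After Dcc the highest levels were those of Map2, a dendritic microtubule protein, at 391 against 18.3 CPM, and Tubb3 at 277 (253 to 302) against 2.24 (0.822 to 4.88). Elavl4 had 226 UMIs and Elavl3 175, against 0 and 0. Of 12 neurogenic genes, 6 were higher, none was lower and 6 did not reach the minimum. Among these Hes6 stood at 107.8 CPM and Neurog2, a proneural factor of the dorsal forebrain, at 94.0 CPM (171 UMIs against 0).

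Among the regional lists, the telencephalon list was higher and the hindbrain, floor plate and eye genes named below were near 0. Of 8 telencephalon genes, 6 were 2-fold or more higher and none was lower, while Dlx2 and Nkx2-1, which mark the ventral telencephalon, had 2 and 0 UMIs. Lhx2, which specifies the cortical primordium, had 884 UMIs in 646 barcodes, or 486 CPM (455 to 519) against 1.87. Emx2, Dmrta2 and Emx1 stood at 184, 179 and 93.5 CPM. Of the 8 midbrain genes, Otx2 (308 UMIs against 0) and Lmx1a (333 against 104), both also expressed in the forebrain, were higher and Lmx1b was lower. The midbrain genes En1, En2, Foxa2 and Wnt1, the isthmus gene Gbx2, the hindbrain genes Egr2, Hoxa2, Hoxb1 and Hoxb2 and the floor plate gene Shh had 0 UMIs each, of 1818985 in the group.

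The remaining regional lists gave 1 gene or none that was higher. Of the 8 diencephalon and eye genes none was higher and Tcf7l2 was lower (210 UMIs against 2557), while Lhx5 had 18 UMIs against 1 and Rax 4 against 0. Of the 9 dorsal neural tube genes Msx1 was higher (106 UMIs against 3) and Bmp6 lower, and Wnt3a, a dorsal midline signal, had 42 UMIs against 0 but did not reach the minimum. Of the 8 ventral neural tube genes 1 was higher and none was lower, and Nkx2-2, Nkx6-1 and Nkx2-9 had 0 UMIs.

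Hox genes, which pattern the trunk, the limbs and the hindbrain, separated the barcode groups in the other direction. Of 39 Hox genes, 31 had no UMI in the ribosomal-rich barcodes, and the other 8 shared 9 UMIs. Over all genes without Rps/Rpl, 15556 of 32195 had no UMI there. Some of the 31, such as Hoxb1, Hoxc12 and Hoxd13, had none in the other barcodes either. All 7 Hox genes that reached the minimum were 2-fold or more lower, beside 27.4% of all genes that did. The barcodes under 1.5% held 1098 Hox UMIs, led by Hoxc4 with 208, Hoxc5 with 186 and Hoxa9 with 118. After 500 UMIs had been drawn from every barcode, 0.287% of ribosomal-rich barcodes (0.105 to 0.623%) and 18.9% of the others (16.9 to 21.1%) had a Hox UMI. Of the 6 genes of hindlimb identity, 3 were lower and none was higher, and Pitx1 and Tbx4, the factors of the hindlimb, had 0 UMIs against 23 and 11.

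Most ribosomal-rich barcodes held at least 1 neural UMI. With every barcode thinned to 500 UMIs, 96.1% (95.2 to 96.9%) had a UMI of the 38 progenitor, neuron and telencephalon genes, with a median of 4 such UMIs, against 5.47% (4.32 to 6.82%) of the other barcodes. A UMI of the fibrogenic, chondrocyte, osteoblast or muscle lists (31 genes, without Sox9) was found in 13.7% (12.2 to 15.2%) of ribosomal-rich barcodes and 92.4% (90.8 to 93.7%) of the others. The median depths before thinning were 784 and 1326 UMIs. Free RNA and expression were not told apart, and Fgfr3 of the chondrocyte list was at 80.3 against 60.5 CPM.

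The 4 measures by which the barcodes were grouped gave shares well above those in the other barcodes. At 500 UMIs per barcode, Sox2 was found in 13.4% of the ribosomal-rich barcodes (11.9 to 14.9%) and in 0 of the 1352 others (0 to 0.2725%). Any of Tubb3, Elavl3 and Elavl4 was found in 20.2% (18.5 to 22.0%) against 0.148% (0.0179 to 0.533%). Ttr was found in 19.9% (18.2 to 21.7%) against 0.222% (0.0458 to 0.647%). Hba-x or Hbb-bh1 was found in 5.59% (4.64 to 6.66%) against 0.296% (0.0807 to 0.756%). Without thinning the shares were 22.1%, 29.4%, 22.0% and 7.26%. Dcc and Rmst, which the grouping did not use, were found in 58.3% and 53.3% at 500 UMIs, against 0.222% and 0.148%.

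Single UMIs of these measures did not divide the barcodes cleanly. Without thinning, 789 ribosomal-rich barcodes (37.7%) had none of the 4 measures, 958 had 1, 312 had 2 and 34 had 3 or more. The largest groups with 1 measure were 361 barcodes with a neuron gene, 304 with Ttr, 238 with Sox2 and 55 with an embryonic globin, and the largest group with 2 was 129 barcodes with Sox2 and a neuron gene. Barcodes with no measure had a median of 717 UMIs, and those with Sox2 and a neuron gene had 1037, so depth moves with the number of measures. At 500 UMIs a neuron gene was found in 17.9% of barcodes with Sox2 and in 20.5% of those without it. Among barcodes with Ttr, Sox2 was found in 8.63% and a neuron gene in 11.5%, against 14.6% and 22.3% of those without Ttr.

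**Figure D3:**
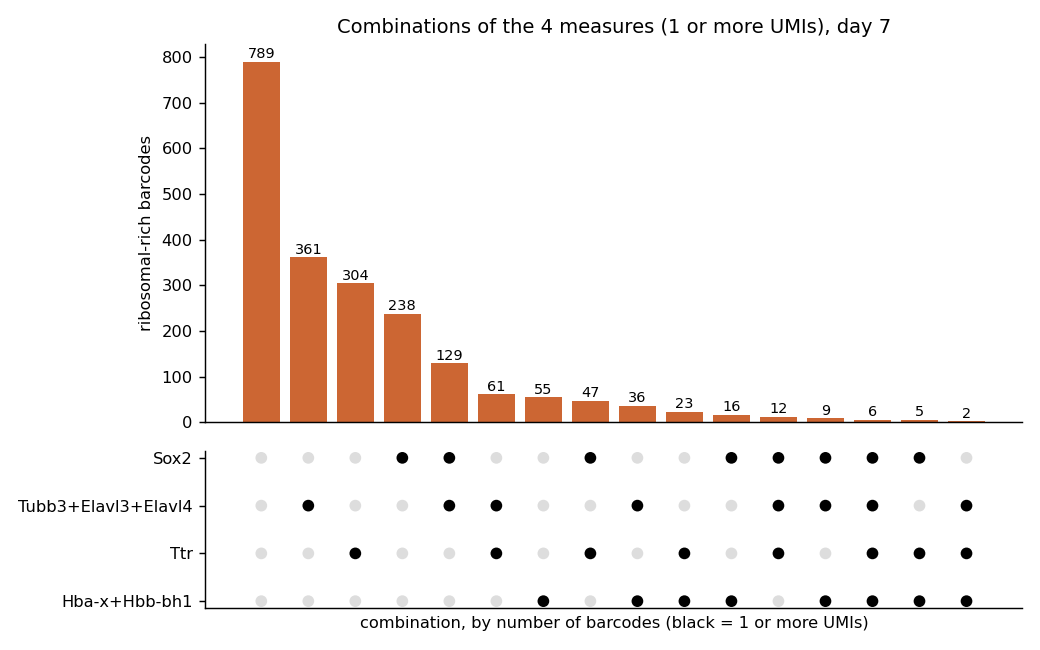
Number of ribosomal-rich barcodes of the day 7 library (bars, vertical) for each combination of the 4 measures, with black dots below marking 1 or more UMIs of Sox2, of Tubb3, Elavl3 or Elavl4, of Ttr, and of Hba-x or Hbb-bh1. Barcodes with none of them are the largest group at 789, and 6 barcodes hold all 4.

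The UMIs of Ttr and of the globins were concentrated in few barcodes with 10 or more, and those of Sox2 and of the neuron genes reached 10 in no barcode. Of 6171 Ttr UMIs, 83.6% lay in 187 barcodes with 10 or more, the highest with 130, and 1633 barcodes had none. Of 3075 Hbb-y UMIs, 87.3% lay in 59 barcodes with 10 or more, while 283 barcodes had a single one. No barcode had more than 5 UMIs of Sox2 or more than 6 of the 3 neuron genes. Sox2 had 554 UMIs in all and the neuron genes 905, while Hba-x and Hbb-bh1, with 855, had 72.2% in 31 barcodes with 10 or more. A cut at 10 does not show smaller unevenness, and the neuron genes were uneven over the clusters below. Dcc lay in between, with 75 barcodes at 10 or more and 19.1% of its UMIs in them.

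**Figure D4:**
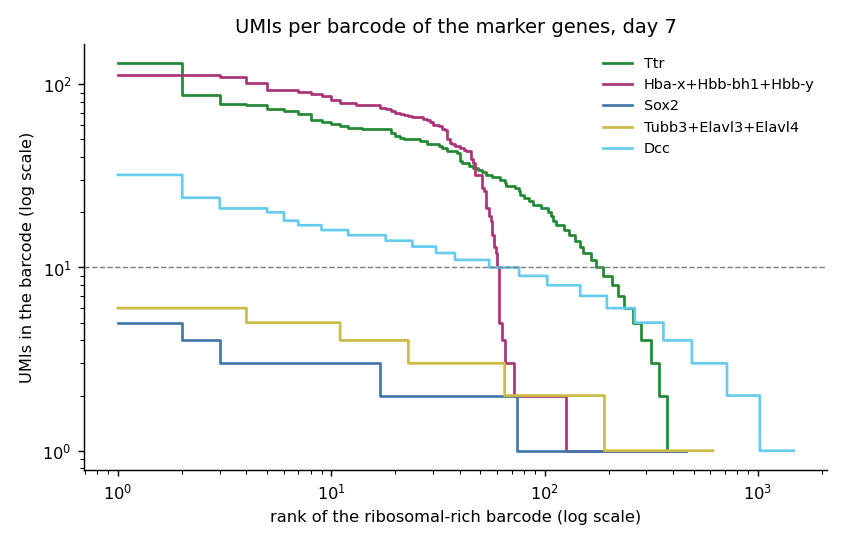
UMIs per barcode (vertical, log scale) of each gene or gene group against the rank of the ribosomal-rich barcode (horizontal, log scale), day 7, with a dashed line at 10 UMIs. The embryonic globin curve drops steeply after the 60 barcodes with 10 or more UMIs, the Ttr curve declines gradually past 187, and Sox2 never exceeds 5.

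Choroid plexus genes were led by Ttr. Of the 12 genes of the list, 8 were 2-fold or more higher and 1 (Enpp2) was lower, with a median log2 ratio of 2.59 over all 12. Rspo3 and Igfbp2, both also expressed outside the choroid plexus, stood at 904 and 501 CPM, and Htr2c, the serotonin receptor of the choroid plexus, at 312 CPM (287 to 338) against 2.61. The 187 barcodes with 10 or more Ttr UMIs had 3012 CPM of Htr2c and 255 CPM of Folr1, the folate receptor of the choroid plexus. The 1855 ribosomal-rich barcodes that were high in neither Ttr nor globin had 65.8 and 27.3 CPM. Dcc, Lhx2 and Sox2 were less abundant in the Ttr-high barcodes, at 1104, 229 and 176 CPM, than in those 1855, at 2916, 505 and 318 CPM. The late genes Kl and Aqp1 had 0 and 3 UMIs.

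The embryonic globins came with adult globins and with few other red cell genes. Hbb-y (chr7:103851749-103853216, GRCm38, minus strand), an embryonic beta globin, stood at 1691 CPM (1631 to 1751) against 8.22 (5.15 to 12.4). Hba-x (chr11:32276400-32278116, plus strand), the embryonic alpha globin zeta, stood at 413 CPM (384 to 444) against 2.24 (0.822 to 4.88), and Hbb-bh1 had 103 UMIs against 1. All 4 adult globin genes were 2-fold or more higher, with 645 UMIs of Hba-a1, 378 of Hba-a2, 344 of Hbb-bt and 120 of Hbb-bs. Of the 12 genes of the primitive erythroid list, 3 (the embryonic globins) were higher, 1 (Tfrc) was lower and 8 did not reach the minimum. Gata1 and Epor had 0 UMIs, Klf1 and Hemgn had 2 each, Slc4a1 had 5 and Alas2 had 7.

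The 60 barcodes with 10 or more UMIs of Hba-x, Hbb-bh1 and Hbb-y also carried neural transcripts. Globins made up a median of 7.34% of their UMIs and at most 18.9%, and 3451 of their globin UMIs were embryonic and 1223 adult. Their Dcc, Rmst and Sox2 levels were 3021, 1362 and 282 CPM, next to 2916, 1676 and 318 CPM in the 1855 barcodes high in neither globin nor Ttr, and 9 of the 60 were also Ttr-high. Alas2 and Slc4a1, of heme synthesis and the red cell membrane, had 4 UMIs each in them. These barcodes were also deeper, with a median of 984 UMIs against 781. The barcode that the limit left out at 4.91% Rps/Rpl had 55 Hbb-y and 9 Hba-x UMIs, 16.8% globin, and 0 UMIs of Sox2, Dcc and Ttr and 1 of Rmst.

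The assignment of globin reads differed in certainty between genes. None of the 31-base stretches in the last 300 bases of the Hba-x, Hbb-y and Hbb-bh1 transcripts occurred in the other globin genes. Hba-a1 shared 88.5% of such stretches with Hba-a2, and Hbb-bs shared 41.1% with Hbb-bt, so counts within each pair are uncertain. As Hba-x and Hbb-y were high in the same barcodes, the 150 bases before their starts in RefSeq (GRCm38.p6), at 32276600 and 103853207, are shown, chr11:32276450-32276599 on the plus strand and chr7:103853208-103853357 on the minus strand. The gene spans given above are those of GENCODE, which begin further upstream, so the windows overlap them. Capitals mark matches, on either strand, to the motif GATAA, the motif CCACCC, the motif CCAAT and the motif ATAAA, and Hbb-bh1 had no entry.

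Hba-x: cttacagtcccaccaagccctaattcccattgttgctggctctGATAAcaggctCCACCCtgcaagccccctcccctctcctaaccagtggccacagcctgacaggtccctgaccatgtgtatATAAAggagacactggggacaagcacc

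Hbb-y: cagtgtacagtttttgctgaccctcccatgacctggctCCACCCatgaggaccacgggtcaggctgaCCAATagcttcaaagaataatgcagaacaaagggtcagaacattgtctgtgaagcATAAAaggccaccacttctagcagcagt

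Both promoters hold CCACCC, 96 bases before the start in Hba-x and 112 in Hbb-y, and ATAAA, 27 and 28 bases before it. GATAA is found in Hba-x only and CCAAT in Hbb-y only. Of 32851 windows of the same length in the table, 19.7% hold CCACCC, 24.1% ATAAA, 13.3% GATAA and 24.5% CCAAT on either strand. A match describes these letters and is not a binding site.

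The ribosomal-rich barcodes were also clustered by themselves, without Rps/Rpl and mitochondrial genes among the features, which gave 9 clusters of 452, 382, 373, 344, 340, 83, 47, 40 and 32 barcodes, numbered by size. Clusters were made from the same counts, so their leading genes describe them and nothing was tested. A class name was used where 3 or more of its markers were in 10% of the barcodes and 4-fold above the other ribosomal-rich barcodes, and no other class had more markers in 10% of the barcodes. This rule was set with the values known. Cluster 3 is called choroid plexus-like and cluster 6 neuron-like, and the others keep their numbers.

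Choroid plexus-like cluster 3 (17.8% of the ribosomal-rich barcodes) was led by Ttr, Htr2c, Trpm3, Sema6d and Pdzd2. Ttr reached 19158 CPM (18672 to 19654) against 184 in the other clusters, with a UMI in 94.1% of barcodes against 6.34%. Htr2c reached 1788 against 11.2 CPM, and Trpm3, a cation channel gene, 6011 against 176 CPM. Folr1, Calml4, Otx2 and Clic6 also passed the 4-fold limit. Among genes known from the dorsal midline, picked after their values were seen, Otx2 (575 CPM), Lmx1a (449 CPM), Msx1 (247 CPM) and Bmp4 (107 CPM) were above their levels in the other clusters (86.7, 129, 19.9 and 15.9 CPM). Wnt3a had 8 of its 42 UMIs there and Rspo1 was at 120.3 against 298 CPM, and Gdf7, Olig3 and Wnt1 had 0 UMIs, while Lhx2 and Emx2 were below at 208 and 48.8 CPM against 543 and 211.

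Cluster 1 (21.6%) was led by Rspo2, Khdrbs2, Rspo1, Sox2ot and Lrp1b. Rspo2 and Rspo1 encode R-spondins, secreted enhancers of Wnt signaling, and reached 1654 (1529 to 1787) and 821 CPM (733 to 916) against 228 and 119 in the other clusters. Another R-spondin gene, Rspo3, had a UMI in 83.0% of its barcodes and 2508 against 469 CPM. The Wnt ligand genes Wnt9a, Wnt5a and Wnt3a, picked after their values were seen, had 54, 49 and 28 of their UMIs there, at 139, 126 and 72.2 CPM against 16.8, 26.6 and 9.78. Lmx1a was at 384 against 129 CPM and Neurog2 at 175 against 72.0 CPM, while Lhx2 was at 178 against 569 CPM. Wnt3a and Lmx1a are known from the cortical hem, the signaling border between cortex and choroid plexus, for which no marker list had been set, and the cluster keeps its number.

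In clusters 2, 4 and 5 Lhx2 stood at 757, 650 and 694 CPM, near its 601 and 622 CPM in clusters 6 and 7 and above its 178 and 208 CPM in clusters 1 and 3. Dcc was low in cluster 2, at 146 CPM (107 to 195) against 3330 in the other clusters, and stood at 3431 and 2433 CPM in clusters 4 and 5. Cluster 2 was led by Nr2f1, Creb5, Lhx2, Bach2 and Ldha, cluster 4 by Nkain2, Mpped2, Fabp7, Sox5 and Hmga2, and cluster 5 by Tenm2, Cadps, Ephb1, Bach2 and Ntrk3. Nr2f1 was at 417 against 203 CPM in cluster 2 and Mpped2 at 2454 against 1369 CPM in cluster 4. In cluster 5 Tenm2 was at 2057 against 654 CPM, in 94.1% of barcodes against 35.4%, and Cadps at 1638 against 525 CPM. In each, 7 to 9 of the 12 progenitor markers were found in 10% or more of barcodes. Median depths were 724, 760.5 and 932 UMIs, so cluster 5 was the deepest of these 3.

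Neuron-like cluster 6 (83 barcodes) was led by Stmn2, Cnr1, Myt1l, Ccser1 and Pak7. Stmn2, a tubulin regulator of growing axons, reached 1069 CPM (838 to 1344) against 33.1, and Tubb3 had 103 UMIs, 1508 against 229 CPM. Of the 18 neuron markers, 12 were found in 10% or more of its barcodes and 3 of the 12 progenitor markers were. Ebf2 (732 against 74.3 CPM), Reln (381 against 53.7 CPM) and Calb2 (161 against 9.14 CPM), known together from Cajal-Retzius neurons of the early cortex and picked after their values were seen, had 50, 26 and 11 UMIs in the cluster. Trp73, another gene of those neurons, had 0 UMIs in any ribosomal-rich barcode. Eomes, Tbr1 and Slc17a6, of glutamatergic cortical neurons and their precursors, were at 249, 205 and 249 CPM against 26.9, 6.85 and 16.6. These levels rest on few UMIs, as the 3 genes had 64, 26 and 46 in all ribosomal-rich barcodes. Of the Eomes UMIs, 23 lay in cluster 1.

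Of the lists of neuron classes, the inhibitory list had 9 UMIs over 8 genes, the motor and monoaminergic list 167 over 10 and the excitatory list 417 over 8. In the inhibitory list 4 genes had none, namely Gad1, Slc32a1, Dlx1 and Lhx1. Of the 10 motor and monoaminergic genes only Nr4a2, which is also expressed in cortical neurons, was 2-fold higher (163 UMIs against 58), and Isl1, Mnx1 and Th were at 0. Of the 8 excitatory genes, Bcl11b (199 UMIs against 21) and Eomes were higher, 1 was lower and 5 did not reach the minimum.

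Cluster 7 (47 barcodes) was led by Hba-x, Hbb-y, Hba-a2, Hba-a1 and Hbb-bt. Hbb-y reached 45570.4 CPM against 455 and was found in 100% of barcodes. It stayed unnamed because 8 progenitor markers and 3 erythroid markers were found in 10% or more of its barcodes, with the progenitor list at 3513 CPM against 3560 in all ribosomal-rich barcodes. Cluster 8 (40 barcodes) was led by Fgf17, Rbfox1, Ptn, Gm29478 and Glis3. Fgf17, a growth factor of the rostral midline and the isthmus, had 28 of its 58 UMIs there, 839 CPM (557.5 to 1213) against 16.8, and its relative Fgf8 had 5. Six3, a rostral forebrain gene that was not among the leading genes, was at 210 against 32.5 CPM in the same cluster. It rested on few UMIs there, and 40 of its 65 UMIs lay in choroid plexus-like cluster 3, at 130 against 16.5 CPM. Cluster 9 (32 barcodes) was led by Hmbox1, Cep57, Trappc4, Dab1 and Cox6a1, of which 4 rested on 8 to 12 UMIs.

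**Figure D5:**
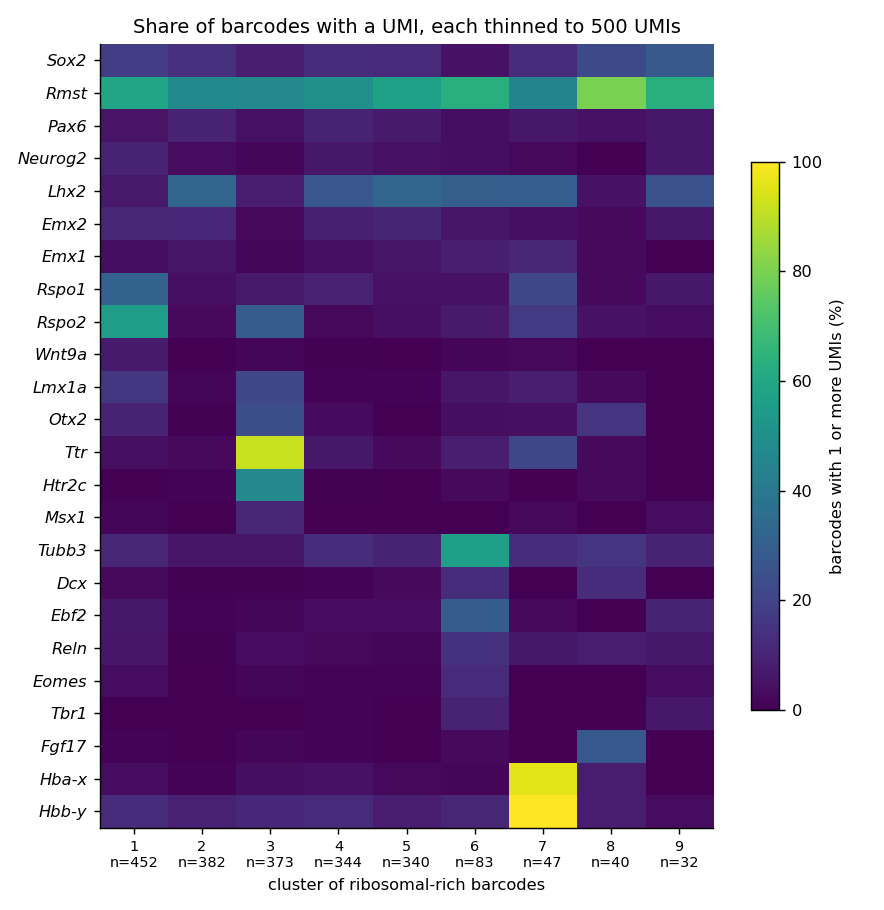
Share of barcodes with 1 or more UMIs (colour, %) after thinning to 500 UMIs, for selected genes (rows) in the 9 clusters of ribosomal-rich barcodes (columns, with their number of barcodes). Ttr and Htr2c stand out in cluster 3, Rspo1 and Rspo2 in cluster 1, Tubb3 and Ebf2 in cluster 6, Fgf17 in cluster 8 and the embryonic globins in cluster 7.

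The 4 measures of the grouping rule fell on these clusters unevenly. At 500 UMIs, Ttr was found in 91.4% of cluster 3 barcodes, in 21.3% of those of cluster 7 and in at most 8.43% of each other cluster. A neuron gene was found in 75.9% of cluster 6 and in 8.58% to 29.8% of the others. Hba-x or Hbb-bh1 was found in 95.7% of cluster 7 and in 0% to 7.5% of the others. Sox2 was spread from 4.82% in cluster 6 and 8.58% in cluster 3 to 28.1% in cluster 9.

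Cell cycle genes were abundant. All 12 mitotic genes and 11 of 12 S phase genes were 2-fold or more higher, with median log2 ratios of 2.75 and 2.33. Top2a, Cenpf and Ube2c, of chromosome condensation, the kinetochore and mitotic exit, had 765, 680 and 645 UMIs, or 421, 374 and 355 CPM against 28.0, 16.1 and 1.49. At 500 UMIs, 57.8% (55.6 to 59.9%) of ribosomal-rich barcodes had a mitotic UMI against 4.59% (3.53 to 5.84%) of the others. The mitotic list was at 1025 CPM in neuron-like cluster 6 and 1564 CPM in choroid plexus-like cluster 3, and between 1807 and 2423 CPM in the other clusters. These genes can be read only as levels, and no cycle phase was called.

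Genes of embryonic growth were mixed. Of 12 genes, 6 were 2-fold or more higher and 3 were lower. The RNA-binding protein genes Igf2bp3 and Igf2bp1 and the chromatin gene Hmga2, all known from fetal tissue, stood at 329, 212 and 301 CPM against 9.71, 0.747 and 29.5. Of the imprinted genes, H19 and Meg3 were 24.0-fold and 11.2-fold lower, at 6.60 and 103 CPM, and Mest was 2.78-fold higher, at 212 CPM. Axon guidance genes were mixed too, with 5 of 16 higher (Dcc, Slit2, Epha5, Robo2 and Epha7) and 8 lower. Immediate-early genes, known to respond to dissociation, were higher for 4 of 8, led by Jun at 230 against 9.34 CPM.

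Most lists of other tissues had fewer UMIs in these barcodes than in the others. The immune list had 13 UMIs in all against 360 in the other barcodes, with Ptprc, which marks all leukocytes, at 0 against 143. The endothelial list had 51 UMIs against 831, of which Kdr had 32 against 48, the fibrogenic stroma list 113 against 10309 and the muscle list 98 against 21166, and no gene of these 4 lists was 2-fold higher. The chondrocyte list had 660 UMIs against 8706, with 132 of Col2a1 and 146 of Fgfr3. In it Sox9, a progenitor gene in neural tissue as well, was the 1 gene of 8 that was higher. The osteoblast list had 99 UMIs against 4464 and the osteoclast list 10 against 646. The embryonic mesenchyme, pericyte and adipocyte lists had no gene 2-fold higher and 5, 4 and 1 lower ones, while Notch3 of the pericyte list was at 66.5 against 46.7 CPM.

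Lists of other embryonic lineages had few UMIs. The visceral endoderm and hepatoblast list had 13 UMIs over 12 genes, with Afp and Alb at 0, and the cardiomyocyte list had 8 UMIs. The pluripotent list had 14 UMIs over 8 genes. The list of sensory neurons and neural crest had 2 UMIs over 10 genes, and Sox10, the factor of neural crest and Schwann cells, had none. The glia list had 508 UMIs, with 345 of Sox9 and 119 of Slc1a3, and the Schwann list 170, with 124 of Cadm2. Of these lists, Cadm2 and Sox9 were higher, Gfap had no UMI, and Slc1a3 and Cspg4 were lower. The epithelial list had 86 UMIs against 471, and none of its 8 genes was 2-fold higher. Trp63, the 1 gene that reached the minimum, was lower with 3 UMIs against 468. Below the minimum, Krt18, Krt8 and Epcam had 37, 23 and 23 UMIs against 0, 0 and 1, and Cdh1, Krt5, Krt14 and Krt19 had 0.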

How the data were processed

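The authors deposited raw UMI counts per gene and barcode for 6 nuclear libraries, made with Cell Ranger (6.0.0 at day 7) from intronic and exonic mm10 reads. A label names a human reference, but the gene IDs are mouse. Libraries held 1499281 to 29796296 UMIs, 4500767 at day 7.

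Rps/Rpl genes are 90 symbols of cytosolic ribosomal proteins, without Rps6k kinases and Rps19bp1. Counts were summed per barcode group and given as CPM. Shares used barcodes thinned to 500 UMIs, the lowest depth at day 7, so no barcode was left out. List counts run over all listed genes, those below the minimum included. The ratio was tested on simulated counts. Clustering used scanpy 1.11.5 (2000 variable genes, 20 components, 15 neighbours, Leiden resolution 0.8). Scrublet (expected rate 6%) marked 2 of 3448 barcodes, too few to count as a working call. Locations follow GENCODE M21 on GRCm38.

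Named genes were the markers of the rule, the 15 largest and 10 smallest ratios (100 or more UMIs, 5% of barcodes), 5 leading genes per cluster, and the highest members of each list. Some list members are counted in their lists and not reported here by name. Members and lists were chosen with earlier results of these data known. With 1 day 7 library nothing was tested.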

Additional observations from a re-analysis of the deposited data

How the results depend on the processing

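Of 68 alternative values, 53 stayed within 1.5 times the reported count or within the interval of the reported share, and 15 did not. No difference in share changed sign, and the counts have no sign to change. Of the 68, 14 leave the barcode groups nearly as they were (the Scrublet calls and another choice of Rps/Rpl symbols), and 39 of the other 54 stayed. The 54 still include the 3% limit (2095 and 1352 barcodes) and the comparison limit of 0.5% (2093 and 1327), which also change the groups little. The number of ribosomal-rich barcodes was 1009 with under 2% mitochondrial UMIs, where the Ttr difference between the barcode groups was 16.1 percentage points instead of 19.7. The other shares moved with depth: differences for Sox2, the neuron genes and the embryonic globins were 27.8, 33.3 and 8.02 points when thinned to 1000 UMIs (590 ribosomal-rich barcodes), and 22.1, 29.0 and 6.74 points, with 21.6 for Ttr, without thinning. When 2 or more UMIs were asked for they were 1.15 points for Sox2, 3.77 for the neuron genes, 15.7 for Ttr and 2.48 for the globins. Genes 2-fold or more higher numbered 2201 to 3190 and lower 2277 to 3139 over 10 alternatives each. Resolution 0.4 gave 4 clusters and resolution 1.2 gave 15. At 0.4 the neuron-like and globin clusters shared 1 cluster of 83 barcodes that held 43.4% of the former, and cluster 8 lay inside a cluster of 575. Clusters 2, 4 and 5 were not separate at 0.4, where 1 cluster of 1089 barcodes held 98.7%, 91.9% and 96.5% of them. At 1.2 the best match held 97.6% of the neuron-like, 100% of the globin and 63.3% of the choroid plexus-like barcodes. For clusters 2, 4 and 5 it held 38.0%, 27.0% and 48.8%, so their borders depend on the resolution. No paired analysis was possible because day 7 has 1 library.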

Other observations

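Sex-linked RNA was found in both forms among the ribosomal-rich barcodes. Without thinning, 574 had a UMI of Xist, the noncoding RNA of the inactive X chromosome, and none of the 4 Y-linked genes Ddx3y, Uty, Kdm5d and Eif2s3y, 185 had the reverse, 8 had both and 1326 had neither. In the barcodes under 1.5% these numbers were 689, 231, 93 and 339. At 500 UMIs, Xist was found in 19.8% (18.1 to 21.6%) against 37.7% (35.1 to 40.4%) and a Y-linked gene in 5.73% (4.78 to 6.82%) against 10.6% (8.99 to 12.3%).

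Embryonic globin RNA was also found in barcodes outside the ribosomal-rich group. In the barcodes under 1.5% there were 29 UMIs of Hba-x, Hbb-bh1 and Hbb-y among 2677784, no barcode had more than 1 UMI of Hbb-y, and Hbb-y was found in 1.63% without thinning. The 5 other libraries had 0. Of the globin UMIs in the barcodes under 1.5%, 29 were embryonic and 24 adult, or 54.7% embryonic. Over all 2093 ribosomal-rich barcodes the embryonic share was 72.55%. It was 64.5% in the 2033 with fewer than 10 embryonic globin UMIs and 73.8% in the 60 with 10 or more. That split used the embryonic UMIs themselves, which raises the share in the 60 and lowers it in the 2033.

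The 3 barcodes between the limits differed from each other. Those at 2.14% and 3.02% Rps/Rpl had 450 and 102 UMIs of Gm42418 and 1 UMI of Ttn each, and the one at 3.02% also had 3 UMIs of Dcc. The one at 4.91% had 29 of Gm42418, none of Ttn and 106 globin UMIs among its 632.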
